A study of Bos taurus with 2 samples.

Results

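The dystrophin-glycoprotein complex spans the membrane of the muscle fibre and ties the actin cytoskeleton to the laminins of the basement membrane. Dystrophin (*DMD*) or its relative utrophin (*UTRN*) holds the actin side, dystroglycan (*DAG1*) binds laminin outside the cell, the sarcoglycans (*SGCA*, *SGCB*, *SGCD*) and sarcospan (*SSPN*) brace dystroglycan in the membrane, and α-dystrobrevin (*DTNA*) recruits syntrophins under it. Loss of dystrophin, of a sarcoglycan or of the sugars on dystroglycan causes muscular dystrophy, and utrophin is the family member of fetal and regenerating muscle, where it is spread along the membrane before dystrophin takes its place. The 8 genes named here were taken as the complex, and its members on the array were the probes whose accession matched one of these symbols. Of the 8 genes, 6 had a matched probe, with 10 probes in all, among 12603 genes with a symbol on the array. No probe had an accession matched to *DMD* or to *UTRN*. Utrophin could therefore not be set against dystrophin, and both are not analysed here. As 26742 of 43652 probes matched a symbol, the array may still carry probes for these genes under identifiers without a match.

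Muscle RNA came from the longissimus thoracis (LT) of Japanese Black cattle fetuses at 8.5 months of gestation. The dams had been inseminated with semen of a single sire and were fed 120% (high nutrition, HN) or 60% (low nutrition, LN) of their nutritional requirement, from before pregnancy on. Each pool held the RNA of 4 fetuses, the heaviest of the HN group and the lightest of the LN group, so that diet and selection by bodyweight (BW) cannot be told apart. Each pool was hybridized to 1 array. Hence the pools could not be tested against each other, and how much fetuses vary is unknown. Values are log2 signals, and the comparison is the log2 of LN over HN (log2 LN/HN), where 0 is no difference and 0.32 is a 1.25-fold difference, the lower fold that the study used. Unless said to be as deposited, log2 LN/HN was taken after quantile normalization, which gives both arrays the same distribution of signals.

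The 6 measured members of the complex differed little between the pools. None of them was past 1.25-fold in either direction, whereas 18.0% of all 19554 genes with a value were. In that total, an array target without a matched symbol was counted as a gene of its own. Of the 10637 genes with a symbol and a value, 15.8% were past 1.25-fold. Of the 10 probes none was past 1.25-fold, against 18.6% of all 31986 probes with a value. Among the 10362 genes with a symbol and a probe well above background in both pools, 14.1% were past 1.25-fold. The median log2 LN/HN of the 6 genes was -0.03, beside -0.0033 over all genes. The median size of the difference, without its sign, was 0.072 in the 6 genes, 0.10 in the 66 measured partner genes described further on, and 0.14 over all genes. All 10 probes were well above background on both arrays. Signals of different probes cannot be ranked against each other, and only the difference between the pools is compared between genes.

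**Figure D1:**
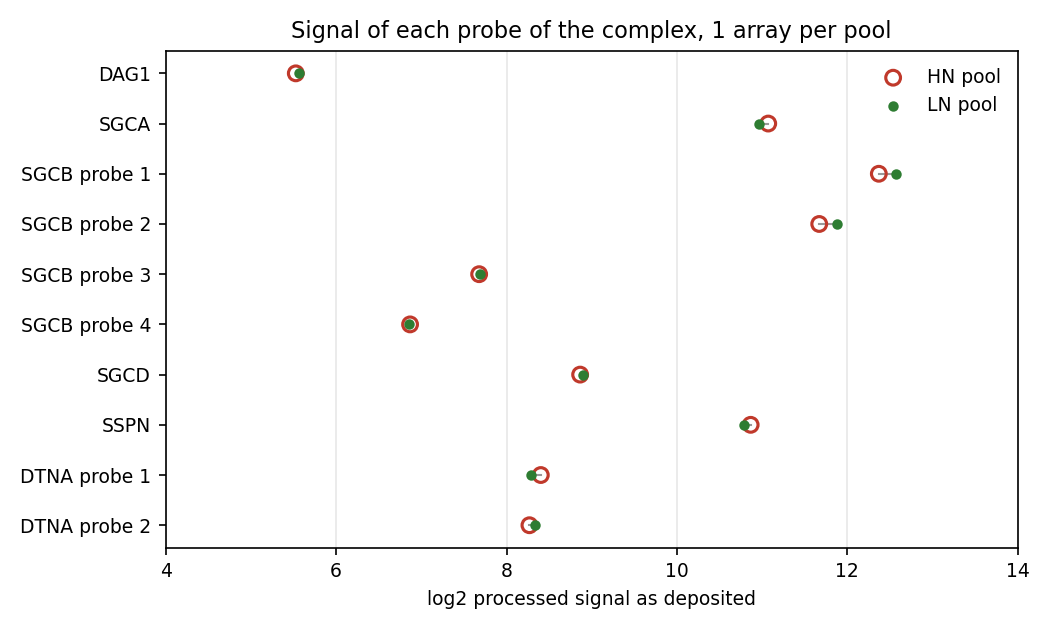
Deposited log2 signal (horizontal axis) of each of the 10 probes of the complex (rows), with the HN pool as an open red circle and the LN pool as a filled green dot. Circles and dots nearly coincide in most rows, and the widest gaps are those of the 2 brighter *SGCB* probes, with 12.37 against 12.57 and 11.67 against 11.88.

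Dystroglycan is made as a single chain that is cut into a laminin-binding subunit and a membrane-spanning subunit. Its single probe had a deposited log2 signal of 5.53 in HN and 5.57 in LN. The pools were thus close, and *DAG1* had a log2 LN/HN of 0.07, or 1.05-fold. Its signal was the nearest to background among the 10 probes, and the error estimate of the scanner software was 10.3% of the signal in HN and 10.4% in LN.

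The sarcoglycans are single-pass membrane proteins that assemble with each other before they reach the membrane. α-Sarcoglycan, which is made almost only in striated muscle, showed the greatest difference of the 6 genes when probes of a gene were averaged, while with the brightest probe of each gene *SGCB* was further from 0 (0.16). The probe of *SGCA* had a deposited log2 signal of 11.07 in HN and 10.97 in LN. After normalization its log2 LN/HN was -0.15, a ratio of 0.90, and 46.2% of all genes with a value had a difference of at least that size. δ-Sarcoglycan, which pairs with β-sarcoglycan early in assembly, was level between the pools, with deposited log2 signals of 8.86 in HN and 8.90 in LN for *SGCD*. Its log2 LN/HN was -0.0068, and 97.1% of genes differed by at least as much. The sign of this value is not settled, since it was 0.03 in the deposited signals.

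*SGCB*, which encodes β-sarcoglycan, was measured by 4 probes to the same transcript accession. The brightest had a deposited log2 signal of 12.37 in HN and 12.57 in LN. The next had 11.67 in HN and 11.88 in LN. Both were higher in the LN pool by a like amount, with log2 LN/HN of 0.16 and 0.15. The dimmer probes were level, with deposited log2 signals of 7.68 and 7.69 for the one and 6.87 and 6.86 for the other. Their log2 LN/HN was -0.012 and -0.0044. The mean over the 4 probes was 0.07, and the SD between the probes was 0.096, beside a median of 0.099 over 7139 genes for which 2 or more probes were well above background in both pools. With the brightest probe alone the value of *SGCB* was 0.16.

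Sarcospan, a small membrane protein that binds the sarcoglycans, had deposited log2 signals of 10.87 in HN and 10.79 in LN. The LN pool was slightly lower, and *SSPN* had a log2 LN/HN of -0.11, or a ratio of 0.92. On the inner side of the membrane, *DTNA* was measured by 2 probes that moved in opposite directions. The first had deposited log2 signals of 8.40 in HN and 8.28 in LN, and the second 8.27 in HN and 8.33 in LN. Their log2 LN/HN was -0.14 and 0.04, and the mean of the gene was -0.05. The gap of 0.18 between these probes of a single gene was wider than the value of any of the 6 genes.

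**Figure D2:**
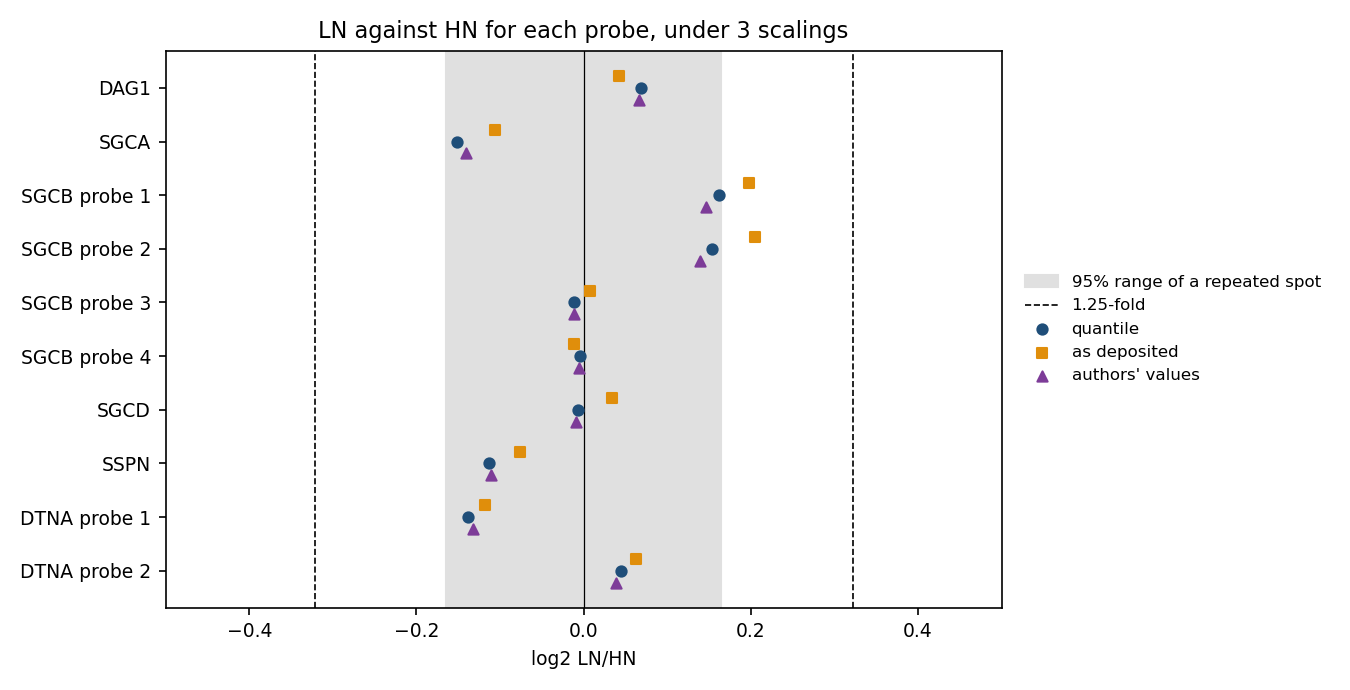
Log2 LN/HN (horizontal axis) of the 10 probes of the complex (rows) after quantile normalization (circles), in the signals as deposited (squares) and in the authors' normalized values (triangles). The grey band reaches 0.16 on either side of 0. Within that distance of their mean 95% of repeated spots would lie if spot errors were normally distributed. The dashed lines mark 1.25-fold. No symbol reaches a dashed line, and the quantile values run from -0.15 (*SGCA*) to 0.16 (*SGCB*).

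Spot error was estimated from repeated spots, and the scanner software gave a further estimate. Among 31 probes printed in several spots, the SD of the log2 LN/HN of a spot around the mean of its probe was 0.084. With normally distributed errors, 95% of spots would fall within 0.16 of that mean. All 10 probes of the complex lay within this range after normalization. In the deposited signals, the 2 brighter *SGCB* probes lay outside it, at 0.20 and 0.21. The estimate of the software was wider. From it, the 95% interval of a probe's log2 LN/HN reached 0.40 to 0.41 on either side of the value, which covers 0 for all 10 probes and is itself wider than 1.25-fold. This error was nearly a fixed share of the signal, from 10% to 10.4% over these probes. The interval would thus cover 0 for any such probe short of 1.25-fold, and it decides nothing about the members. By the repeated spots, differences of the size seen here were not resolved by 1 array per pool after normalization. Both estimates leave out the spread between animals. The repeated spots lie on the same 2 arrays and also leave out any error shared by the spots of a probe.

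Other ways of processing the arrays gave another value for the members in 5 settings, the 3 other scalings, the normexp background correction and the authors' normalized values. For *DTNA* and *SGCB* the choice of probe also changed it. The other settings tried returned the same values, because all 10 probes were well above background on both arrays and none was an outlier spot. Over the settings that could change them, *SGCD* alone changed sign, and the ranges were -0.16 to -0.11 for *SGCA*, -0.12 to -0.08 for *SSPN*, -0.14 to -0.03 for *DTNA*, 0.0066 to 0.11 for *DAG1* and 0.06 to 0.16 for *SGCB*. By probe, 6 of the 10 were lower in the LN pool after quantile normalization and 4 of the 10 in the deposited signals. No member passed 1.25-fold in these settings.

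The proteins that complete the complex or attach to it were described from 8 lists of genes. Without the 8 members they hold 86 genes, of which 66 had a matched probe, and all 66 had a value. Past 1.25-fold were 5 of these 66 (7.58%, beside 18.0% of all genes and 15.8% of those with a symbol). Of the 5, 2 were higher and 3 lower in the LN pool (8.85% and 9.11% of all genes). Their log2 LN/HN ran from -0.52 to 0.55 with a median of -0.02, and 28 were higher and 38 lower in the LN pool by any amount, beside 9636 and 9906 of all genes.

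**Figure D3:**
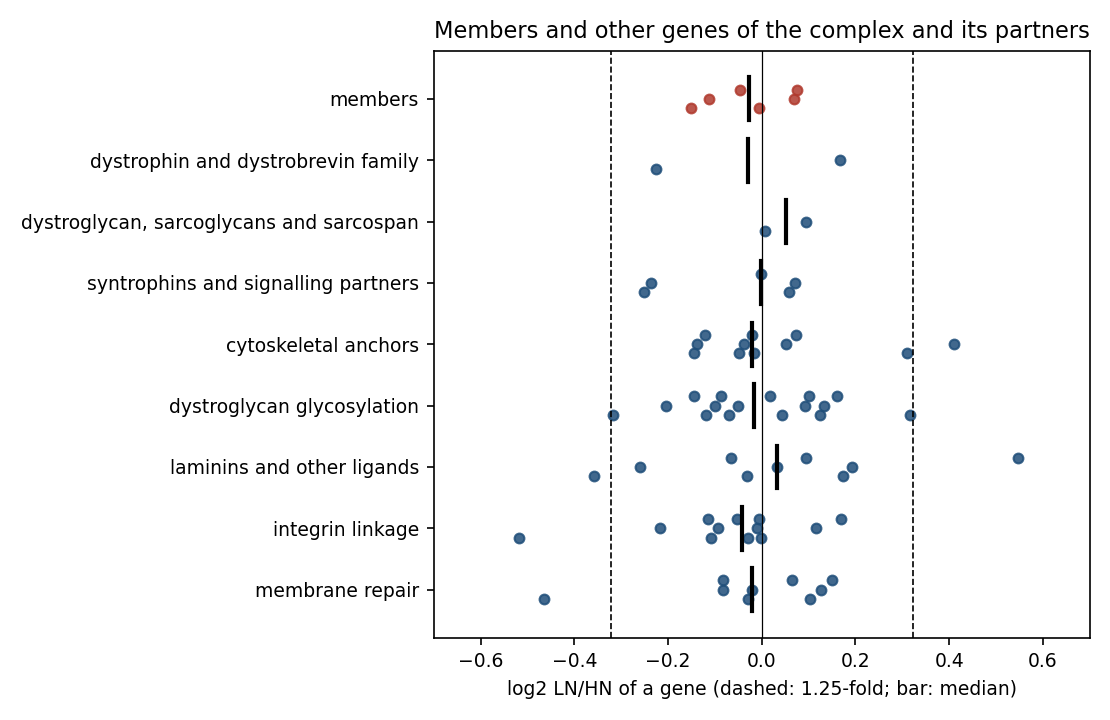
Log2 LN/HN (horizontal axis) of the 6 measured members (red) and of the other genes of 8 lists (blue), a dot per gene, with the median of each row as a black bar and 1.25-fold as dashed lines. All members lie between -0.15 and 0.07 (*SGCA* to *SGCB*), and 5 of the 66 other genes lie outside the dashed lines.

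The closest relatives of the members were also short of 1.25-fold. Among the other sarcoglycans, *SGCE*, the relative of *SGCA* that is made in many tissues, had a mean log2 signal of 8.31 in HN and 8.41 in LN. Its 3 probes gave 0.07 to 0.11, with a mean of 0.09. In the dystrophin and dystrobrevin family, *DRP2*, a short dystrophin relative known from Schwann cells, had a log2 LN/HN of -0.22, and *DTNB*, which encodes β-dystrobrevin, of 0.17. Both rested on a single detected probe and neither was past 1.25-fold. A further *DTNB* probe was not well above background on either array, and with it the value was 0.03. No accession matched *SGCZ*.

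Of the syntrophins and signalling partners, 5 of 10 were measured and none was past 1.25-fold. Caveolin-3, which shapes the membrane pits of the muscle fibre and binds dystroglycan, had log2 signals of 13.41 in HN and 13.16 in LN for *CAV3*, a log2 LN/HN of -0.25. The LN pool was lower without reaching the threshold. *SNTB2*, *GRB2* and *MAPK12* lay between -0.0023 and 0.07, and *NOS1* had no matched probe.

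Among the cytoskeletal anchors 1 of 11 measured genes was past 1.25-fold, the keratin *KRT8*, whose protein joins the complex to the fibre's contractile units together with that of *KRT19*. *KRT8* had a log2 LN/HN of 0.41, but its 2 detected probes disagreed, with 0.99 and -0.17, and the brighter of them gave the negative value. *KRT19* likewise gave 0.60 and 0.02, with a mean of 0.31. These keratins are also made by epithelia. Desmin (*DES*) gave -0.15 from 4 probes between -0.41 and 0.06, and β-actin (*ACTB*) -0.14 from 4 probes between -0.45 and 0.11, so that probes disagreed in these genes too. Synemin (*SYNM*) gave -0.12 and filamin C (*FLNC*) 0.05.

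The enzymes that build the laminin-binding sugar chain on dystroglycan were measured for 16 of 18 genes. None of the 16 was past 1.25-fold, 8 were higher and 8 lower in the LN pool, and the median log2 LN/HN was -0.02. *RXYLT1*, which adds a xylose from which the chain is extended, was just short of the threshold at -0.317, with log2 signals of 6.80 in HN and 6.48 in LN from 1 probe. It was past 1.25-fold after subtraction of the 75th percentile (-0.359) and without normalization (-0.324), and was -0.156 after normexp. On the other side *LARGE2* gave 0.316 from a dim probe (2.71 in HN and 3.02 in LN). The mannosyltransferase genes *POMT1* and *POMT2*, which start the chain together, gave 0.09 and -0.05.

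Outside the cell, 2 of the 9 measured ligands were past 1.25-fold. *EGFLAM*, which encodes the dystroglycan ligand pikachurin, had log2 signals of 11.14 in HN and 10.79 in LN, a log2 LN/HN of -0.36 from the single detected probe. The muscle laminin chain gene *LAMA2* and *AGRN* had no matched probe. *LAMB2*, a laminin β chain of the muscle and the synapse, gave -0.26, and *LAMC1*, the γ chain shared by most laminins, 0.10.

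The integrin linkage is the other laminin receptor of the fibre, and 12 of its genes were measured, with a median log2 LN/HN of -0.04. A single gene passed 1.25-fold, *PARVA*, which encodes α-parvin, with a log2 LN/HN of -0.52. It was dim (3.89 in HN and 3.37 in LN), and its 2 probes gave -0.90 and -0.14. *ILK*, the integrin-linked kinase that binds parvin, gave -0.22 from 3 probes between -0.27 and -0.13, and the muscle laminin receptor *ITGA7* gave -0.11. In the list of membrane repair, 1 of 9 measured genes was past 1.25-fold. *CAPN3*, a muscle protease whose loss causes a limb-girdle dystrophy, had mean log2 signals of 10.74 in HN and 10.27 in LN. Its 5 probes all were lower in the LN pool, from -0.56 to -0.39, with a mean of -0.47 or a ratio of 0.72. Dysferlin, the membrane-patching protein of *DYSF*, gave -0.08, and the annexin *ANXA1* gave 0.15.

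Markers of skeletal muscle were measured in both pools, and lists of markers of other cell types differed between the pools to unequal degrees. The counts past 1.25-fold stand beside the 18.0% of all genes, or 8.85% higher and 9.11% lower in the LN pool. Among genes with a symbol the share was 15.8%. Of the 12 markers of skeletal muscle, 10 were measured, with a mean log2 signal of 15.09 in HN and 14.99 in LN. Of these 8 were lower and 1 higher in the LN pool by any amount, with a median log2 LN/HN of -0.11. The 2 past 1.25-fold were myoglobin (*MB*) with -0.37 and the perinatal myosin *MYH8*, the one that was higher, with 0.35. All 8 markers of fibroblasts were higher in the LN pool, 4 of them past 1.25-fold, with a mean log2 signal of 10.80 in HN and 11.09 in LN. Of the markers of smooth muscle, 6 of 7 measured were lower in the LN pool and 4 of them past 1.25-fold, with means of 9.35 and 9.10. Of those of endothelium, 7 of 8 were lower by any amount, with means of 8.39 and 8.18, and 1 of 8 past 1.25-fold was a share near that of all genes. The nerve and Schwann cell list had a median log2 LN/HN of 0.0029, from -0.13 to 0.30, with none of its 5 measured genes past 1.25-fold. Of 4 measured markers of adipocytes 3 were higher, with *FABP4* (0.39) past 1.25-fold and a median of 0.21. Of 5 measured markers of satellite cells and myoblasts 4 were lower, with *MYMK* (-0.50) past 1.25-fold and a median of -0.14. Of the 6 markers of cardiac muscle 5 were matched, of which *NPPA* and *NPPB* were not well above background on either array. The other 3 were detected, *TNNI3* with a log2 LN/HN of -0.26, *TNNT2* with -0.14 and *MYBPC3*, the 1 of them past 1.25-fold, with 0.34. The *MYBPC3* probes ran from -0.0096 to 0.92, the highest of them a lower bound from a probe not well above background in HN. In pooled tissue, fewer cells of a type and less RNA per cell cannot be told apart. Some members and partners, among them *SGCB*, *SGCD*, *SGCE*, *SSPN* and the laminins, are also made by smooth muscle or other cells of the tissue, and the part of these cells in their values was not tested.

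**Figure D4:**
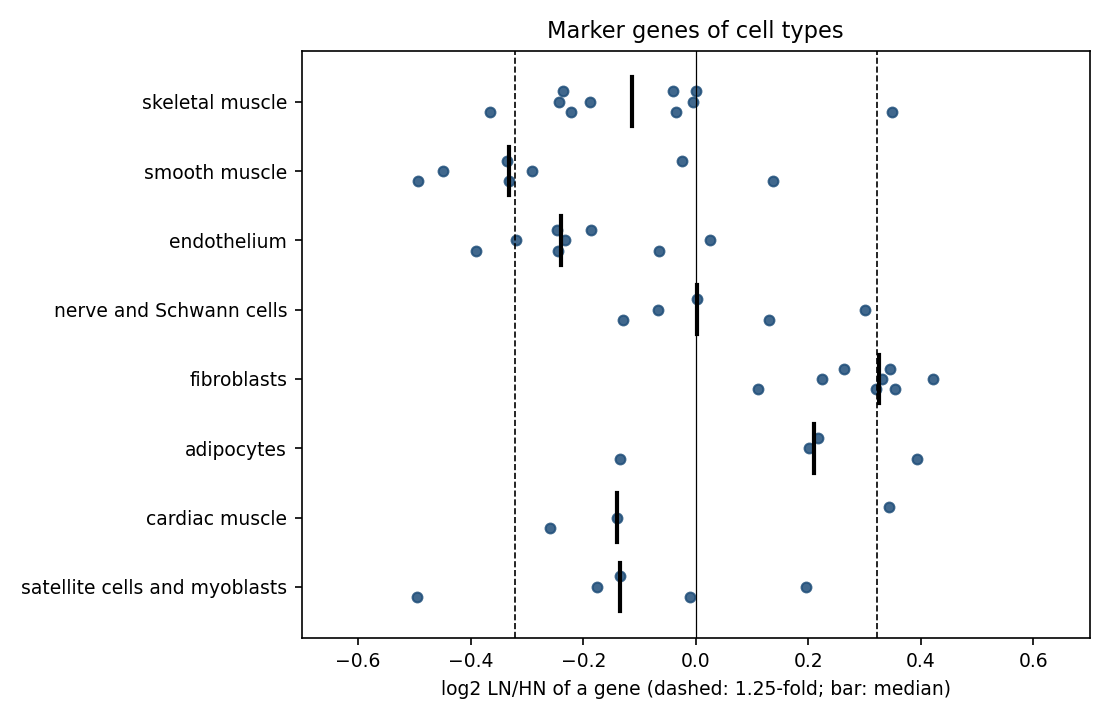
Log2 LN/HN (horizontal axis) of marker genes of 8 cell types, a dot per gene, with the median of each list as a black bar and 1.25-fold as dashed lines. The fibroblast markers all lie to the right of 0 (median 0.33), and most markers of smooth muscle (median -0.33) and endothelium (median -0.24) lie to the left.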

How the data were processed

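The authors deposited, for each pool, spot intensities of a one-color array (Bovine v2 design, based on the UMD 3.1 assembly) from Feature Extraction 11.0.1.1, background-corrected and detrended but not normalized between arrays. For 30027 probes they also deposited log2 values from GeneSpring GX after quantile scaling, the log2 scale being judged from the values. Here, log2 processed signals of 43803 non-control spots were quantile normalized with limma 3.58.1 in R 4.3.3. After removal of 13 spots flagged as outliers, spots were averaged by probe. Probes well above background in either pool were used. Where 1 pool was dim, its value was raised to that array's floor (log2 2.27 for HN and 2.82 for LN, the dimmest spot well above background) unless already higher, and a probe whose bright side stayed below the floor gave no fold. A gene is the mean of its probes, and probes without a matched symbol were grouped by their array target and counted as genes. On HN 74.5% and on LN 70.9% of spots were well above background, and the number of arrays limits the precision. Accessions were matched to symbols through the RefSeq table of ARS-UCD2.0, and 26742 of 43652 probes matched. Python 3.11.15, numpy 2.4.6, pandas 2.3.3, scipy 1.17.1 and matplotlib 3.10.9 were used, and the steps were tested on simulated data. Named partners were, in each list, genes past 1.25-fold or, where fewer than 2 were, the 2 with the greatest difference and no dim probe. Further genes were chosen after their values were seen. The values of some named partners are not reported here, while counts and medians include them. The members, lists and rules were chosen with earlier results of these data known. Alternatives were other scalings, background correction, filters, probe summaries and folds.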

Additional observations from a re-analysis of the deposited data

How the results depend on the processing

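The count of members past 1.25-fold was 0 by gene and 0 by probe under each alternative run. These were no normalization, cyclic loess or subtraction of the 75th percentile in place of the quantile method, normexp with offset 50, the values normalized by the authors, 3 filters on dim probes, dim signals as measured, flagged spots kept, a fold of 2 and, by gene, the brightest or median probe. For the members the filters, dim signals as measured and kept spots returned the same values and a fold of 2 could not raise the count, so these say nothing of stability. Among the 66 partner genes, the count past 1.25-fold was 5. It fell to 1 after normexp, and to 3 without a filter on dim probes, with the positive and significant filter and with the brightest probe. In the other alternatives it was 5 or 6. *CAPN3* was past 1.25-fold in all 12 alternatives, from -0.48 to -0.36. In the authors' values (-0.36) and with the brightest probe (-0.39) it rested on the same single probe. With the brightest probe *KRT8* turned to -0.17 and *PARVA* was -0.14. After normexp *PARVA* was -0.12 and *KRT8* 0.20. *EGFLAM* was -0.21 and *DTNB* 0.03 without a filter on dim probes. Over all genes, 3512 were past 1.25-fold, against 710 after normexp, 6843 without a filter and 6902 with the positive and significant filter. The share of these that was higher in the LN pool was 49.3%, against 30.7% after subtraction of the 75th percentile and 39.3% without normalization. The medians of the fibroblast, smooth muscle and endothelium lists had the same sign in all 12 alternatives (0.26 to 0.36, -0.34 to -0.29 and -0.25 to -0.19). The adipocyte median of 0.21 kept its sign but fell to 0.05 without a filter on dim probes and with the positive and significant filter. Medians near 0 changed sign in 1 to 4 alternatives, from -0.06 to 0.0033 for the members, -0.04 to 0.0061 for the 66 partner genes, -0.06 to 0.06 for glycosylation, -0.04 to 0.06 for membrane repair, -0.05 to 0.05 for syntrophins and signalling partners, -0.04 to 0.0043 for cytoskeletal anchors, -0.01 to 0.07 for ligands and -0.0057 to 0.22 for nerve and Schwann cells. The causes of these changes were not tested. The difference between *UTRN* and *DMD* gave no value in any setting, and adding probes by gene name was not run, as the scanner columns used hold none. Normexp was run on median spot signals. No paired analysis was possible because each group has 1 array and no test was made.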
